A study of Dichomitus squalens with 16 samples.

Results

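The gene for the DyP-type peroxidase of the white-rot fungus Dichomitus squalens (DICSQDRAFT_150405, RefSeq symbol DyP1) was followed over 4 growth substrates and 2 sampling days. It was picked by its protein number in the Dicsq1 gene models (written here as Dicsq1.150405), and it is 1 gene of the 11410 with reads in the series. It was also the only gene described as DyP-type among them. The choice was made because its transcript was already known to be abundant on wood in these libraries, above all on day 9. Its levels on wood, their difference from the non-woody substrates and their change over time on wood are therefore given as a description, with no test.

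DyP-type peroxidases are heme enzymes that use hydrogen peroxide to oxidise other molecules. They are named for the synthetic dyes that they decolourise, and they differ in fold and origin from the class II peroxidases (manganese, lignin and versatile peroxidases) through which white-rot fungi attack lignin. Both kinds of enzyme need heme and a supply of hydrogen peroxide, which in these fungi comes in part from alcohol oxidases, aryl-alcohol oxidases and copper radical oxidases. What DyP-type enzymes do during wood decay is less well known than the role of the class II enzymes.

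Strain LYAD-421 SS1 was precultured for 4 days at 28 °C and then moved to 100 ml of a low-nitrogen medium with asparagine and succinate, with 1 g of spruce sawdust, aspen sawdust, ground wheat bran or ground hulls of cotton seeds. The preculture medium also held 6.8 mM glycerol. Mycelium was taken with the substrate it had colonised on day 16 and on day 9, which makes 8 groups with 2 libraries in each. All groups are the same strain and differ in nothing else that the labels state. The labels do not say that the 2 libraries of a group came from separate cultures, so the p-values below rest on a spread that may be technical only.

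Group means of unique reads per library ran from 8086856 ± 145560 on day 16 spruce to 8636932 ± 297801 on day 9 cotton seed hulls (SD, n = 2). Over genes, which are not independent replicates, Pearson's r between the libraries of a group was 0.985 to 0.994 on the log2 scale. Libraries of 1 group differed most on day 9 wood, where the chi-square per degree of freedom was 28.1 and 30.7, against 1.69 to 11.95 in the other groups. The factors that correct for library composition (TMM) were 0.702 to 0.850 in cotton seed hull libraries and 0.983 to 1.22 in the others. Fold changes can therefore differ from ratios of RPKM, and not only where cotton seed hulls are involved.

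Levels are given as RPKM, reads per kilobase of gene model scaled by the authors to the unique reads of the library. The gene model of the DyP gene is 1452 bases long, and reads covered 99.59 to 99.93% of it in every library. Between 1495 and 142356 reads were counted per library, so that counting error alone was 0.265 to 2.59%.

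On spruce the DyP transcript stood at 2467 and 2883 RPKM in the 2 day 16 libraries, against 11369 and 7427 RPKM in the 2 day 9 libraries. Both day 9 libraries lay far above both day 16 libraries, and the day 9 pair was the most widely spread of all. On aspen the values were 3190 and 3448 RPKM on day 16, against 8092 and 6009 RPKM on day 9. The days did not overlap here either, and the aspen values lay in the same range as those of spruce.

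On wheat bran the DyP transcript reached 353 and 376 RPKM on day 16, against 939.7 and 878 RPKM on day 9. On cotton seed hulls it reached 216 and 239 RPKM on day 16, against 132 and 122 RPKM on day 9. Cotton seed hulls were thus the substrate where the later libraries were the higher ones, while on the other substrates the day 9 libraries were higher.

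**Figure D1:**
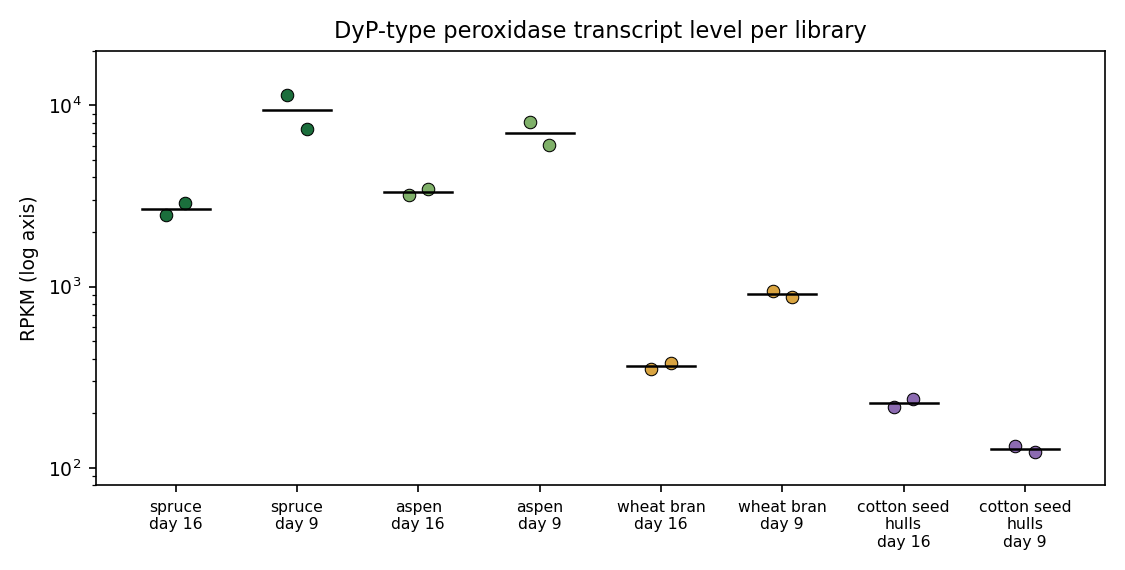
RPKM of the DyP-type peroxidase gene on a log axis in each of the 16 libraries (points) with the group mean (line), for day 16 and day 9 on each substrate. All 8 wood libraries lie between 2467 and 11369 RPKM and all 8 non-woody libraries between 122 and 939.7 RPKM, and cotton seed hulls are the substrate with the higher values on day 16.

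Ordered by mean level, the groups ran from day 9 spruce (9398 ± 2787 RPKM, SD, n = 2 here and below) through day 9 aspen (7051 ± 1473), day 16 aspen (3319 ± 182) and day 16 spruce (2675 ± 294) to the non-woody groups. Those followed as day 9 wheat bran (909 ± 43.8), day 16 wheat bran (364 ± 16.9), day 16 cotton seed hulls (228 ± 16.7) and day 9 cotton seed hulls (127 ± 7.28). Of the 7 steps between neighbours in this order, only the first, between the 2 woods on day 9, had overlapping libraries. The order was the same with composition-scaled read counts. From the highest group mean to the lowest the level differed 73.8-fold.

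The DyP gene held a large share of all unique reads on wood, not corrected for model length. On spruce 0.358 and 0.419% of all unique reads came from it on day 16 (95% Wilson intervals 0.354 to 0.362% and 0.414 to 0.423%), against 1.65 and 1.08% on day 9 (1.64 to 1.66% and 1.07 to 1.09%). On aspen the shares were 0.463 and 0.501% on day 16 (0.459 to 0.468% and 0.496 to 0.505%), against 1.18 and 0.872% on day 9 (1.17 to 1.18% and 0.866 to 0.879%). On wheat bran they were 0.0512 and 0.0547% on day 16 (0.0497 to 0.0527% and 0.0531 to 0.0562%), against 0.136 and 0.127% on day 9 (0.134 to 0.139% and 0.125 to 0.130%).

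Cotton seed hull libraries gave the gene 0.0313 and 0.0348% of their reads on day 16 (0.0301 to 0.0326% and 0.0335 to 0.0360%), against 0.0192 and 0.0177% on day 9 (0.0183 to 0.0202% and 0.0169 to 0.0187%). These intervals cover counting error only, and reads without molecular identifiers are not independent molecules. In the day 9 wood groups the replicates lay much further apart than their intervals. RNA came from whole colonised substrate, so a smaller part of the mycelium with the transcript and less transcript per hypha cannot be told apart.

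By RPKM the gene ranked 26 and 20 on spruce on day 16, against 4 and 6 on day 9, where rank 1 is the highest of 10976 to 11196 genes with reads in a library. On aspen it ranked 16 and 15 on day 16, against 9 and 8 on day 9. The wheat bran libraries placed it at ranks 294 and 274 on day 16, against 109 and 113 on day 9. In the cotton seed hull libraries it was at ranks 462 and 426 on day 16, against 829 and 896 on day 9.

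Ranks by RPKM and by reads can differ, since RPKM divides reads by model length and read counts grow with it. On day 9 the mean level of the DyP gene was exceeded by 4 genes on spruce and by 9 on aspen. Every one of these had a shorter model than the DyP gene, but how common shorter models are among all genes was not counted. By the number of reads, the DyP gene was first in 3 of the 4 day 9 wood libraries and at rank 3 in aspen replicate 2. The first gene by RPKM was DICSQDRAFT_73523 on day 9 spruce (20383 ± 174 RPKM, 201 bases) and the CHK1 checkpoint-like DICSQDRAFT_73518 on day 9 aspen (14982 ± 2222 RPKM, 168 bases), both partial models. The DyP gene stood at place 5 by mean level on day 9 spruce, between DICSQDRAFT_73601 (10290 ± 1078 RPKM) and DICSQDRAFT_127244 (8740 ± 1866 RPKM). On day 9 aspen it was at place 10, between DICSQDRAFT_70855 (7262 ± 3754 RPKM) and DICSQDRAFT_73579 (6032 ± 284 RPKM), and none of these neighbours in rank has a description.

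**Figure D2:**
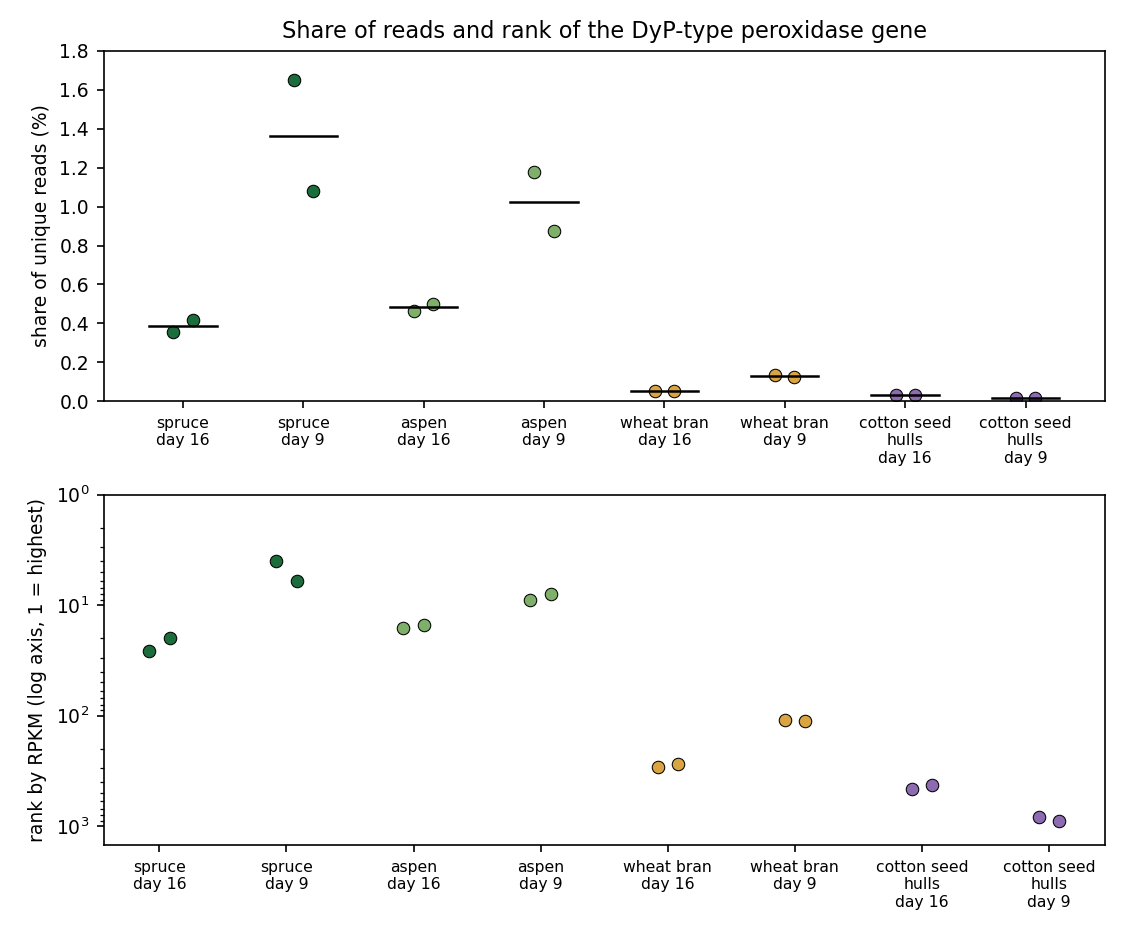
Share of unique reads (top, percent, with the group mean as a line) and rank by RPKM (bottom, log axis with rank 1 at the top) of the DyP-type peroxidase gene in each library. On day 9 the 4 wood libraries have shares of 0.872 to 1.65% and ranks 4 to 9, and the 4 non-woody libraries shares of 0.0177 to 0.136% and ranks 109 to 896.

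Other genes that were first by mean RPKM give the scale of these ranks. DICSQDRAFT_93145 led on day 16 spruce (8675 ± 54.5 RPKM) and on day 16 aspen (12754 ± 445 RPKM), at 3.24 and 3.84 times the DyP level. On wheat bran the leading genes were DICSQDRAFT_73523 on day 16 (13234 ± 417 RPKM) and a small heat shock protein, DICSQDRAFT_109568, on day 9 (14878 ± 5100 RPKM), at 36.3 and 16.4 times the DyP level. On cotton seed hulls the leading genes were DICSQDRAFT_73518 on day 16 (23364 ± 13541 RPKM) and DICSQDRAFT_151452 on day 9 (14363 ± 595 RPKM), at 103 and 113 times the DyP level.

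Against the non-woody substrates, the wood cultures had more DyP transcript on both days. On day 16 the 4 wood libraries lay between 2467 and 3448 RPKM (median 3037), against 216 to 376 RPKM in the 4 non-woody ones (median 296). On day 9 they lay between 6009 and 11369 RPKM (median 7759.9), against 122 to 939.7 RPKM (median 505). The groups did not overlap on either day, and the lowest wood library held 6.55 times the level of the highest non-woody library on day 16 and 6.39 times on day 9.

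As fitted across all genes with edgeR's quasi-likelihood model, the log2 fold change of wood over non-woody substrates was 2.89 ± 0.12 (SE) on day 16 and 4.30 ± 0.13 on day 9. These are descriptions, since the gene was chosen for this difference. Of 10584 genes tested, 59.7% passed an adjusted p of 0.05 in either direction on day 16 and 71.6% on day 9, so passing would have said little about the DyP gene. The wood libraries of day 16 were also above the non-woody libraries of day 9, at 2467 RPKM in the lowest of the first and 939.7 RPKM in the highest of the second.

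Whether the softwood and the hardwood differed was tested, because both lie on the same side of the comparison by which the gene was chosen. The test still uses the wood libraries that led to the choice, so its p-values are not fully free of it. On day 9 spruce stood at 9398 ± 2787 RPKM and aspen at 7051 ± 1473 RPKM. The difference did not pass the test (log2 fold change 0.21 ± 0.16, 95% interval -0.14 to 0.55, adjusted p = 0.402 by edgeR's quasi-likelihood test with Benjamini-Hochberg adjustment, as for all adjusted p below). In this comparison 21.4% of all genes passed in either direction. With library size alone the value was 0.415 (adjusted p = 0.0772). The call turned on single libraries. Without spruce replicate 1 the value was -0.13 (adjusted p = 0.6), and without spruce replicate 2 it was 0.47 (adjusted p = 0.0206).

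On day 16 the order of the woods was the other way round, at 2675 ± 294 RPKM on spruce and 3319 ± 182 RPKM on aspen, with no overlap of libraries. This difference did not pass either (log2 fold change -0.40 ± 0.16, 95% interval -0.74 to -0.06, adjusted p = 0.0852, with 23.5% of all genes passing). A fit on the libraries of these 2 groups alone gave -0.37 with an adjusted p of 0.0313. Leaving out either day 9 spruce library kept the value at -0.40 but gave adjusted p values of 0.0142 and 0.0148.

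Among the non-woody substrates, wheat bran held far more DyP transcript than cotton seed hulls on day 9. The levels were 909 ± 43.8 RPKM on wheat bran and 127 ± 7.28 RPKM on cotton seed hulls, with no overlap. The gene was higher on wheat bran by a log2 fold change of 2.60 ± 0.17 (95% interval 2.24 to 2.97, adjusted p = 1.5e-08), and 33.8% of all genes passed in this comparison in either direction. Over the alternatives run this value stayed between 2.55 and 2.84.

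By day 16 the gap between wheat bran and cotton seed hulls had mostly closed. The levels were 364 ± 16.9 RPKM on wheat bran and 228 ± 16.7 RPKM on cotton seed hulls, still without overlap, a ratio of 1.60 by RPKM. With composition scaling the log2 fold change was 0.21 ± 0.16 (95% interval -0.14 to 0.55) and did not pass the test (adjusted p = 0.365, with 31.4% of all genes passing). This call depends on the scaling and on which libraries are fitted. With library size alone the value was 0.68 (adjusted p = 0.00425), while the median of all genes moved to 0.48 in that comparison. A fit on the 4 libraries compared gave 0.23 with an adjusted p of 0.000288.

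The day effects had different directions on the non-woody substrates. On wheat bran the DyP gene fell to 364 ± 16.9 RPKM on day 16, against 909 ± 43.8 RPKM on day 9 (log2 fold change -1.31 ± 0.16, 95% interval -1.65 to -0.96, adjusted p = 3.88e-05, with 17.3% of all genes passing). On cotton seed hulls it rose to 228 ± 16.7 RPKM on day 16, against 127 ± 7.28 RPKM on day 9 (1.09 ± 0.17, 95% interval 0.74 to 1.44, adjusted p = 0.000122, with 28.4% passing). Both calls held in every alternative run. The day 9 libraries of these tests are the ones against which the day 9 wood level stood out when the gene was chosen.

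The difference between the 2 day effects was itself tested. The day effect on wheat bran minus that on cotton seed hulls was -2.39 ± 0.23 (95% interval -2.89 to -1.90, adjusted p = 8.21e-06). In this comparison 9.39% of all genes passed in either direction and 5.10% were lower. By TMM scaling 454 genes were called higher and 540 lower here, but by library size 1358 were higher and 270 lower, so the balance over all genes depends on the scaling. The DyP value kept its sign and its call.

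On wood the DyP level was lower on day 16 than on day 9. The log2 fold change of day 16 over day 9 was -1.83 ± 0.17 on spruce and -1.22 ± 0.16 on aspen, given without a test because the high day 9 levels led to the choice of the gene. In these comparisons 50.6% and 63.6% of all genes passed in either direction. Without spruce day 9 replicate 1 the spruce value was -1.50. The day effect on spruce minus that on aspen was -0.61 ± 0.23 (95% interval -1.09 to -0.12). It is built from the same day 9 wood levels and is likewise a description without a test, in a comparison where 19.0% of all genes passed. Its size turned on the day 9 spruce libraries, at -0.27 without replicate 1 and -0.87 without replicate 2.

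**Figure D3:**
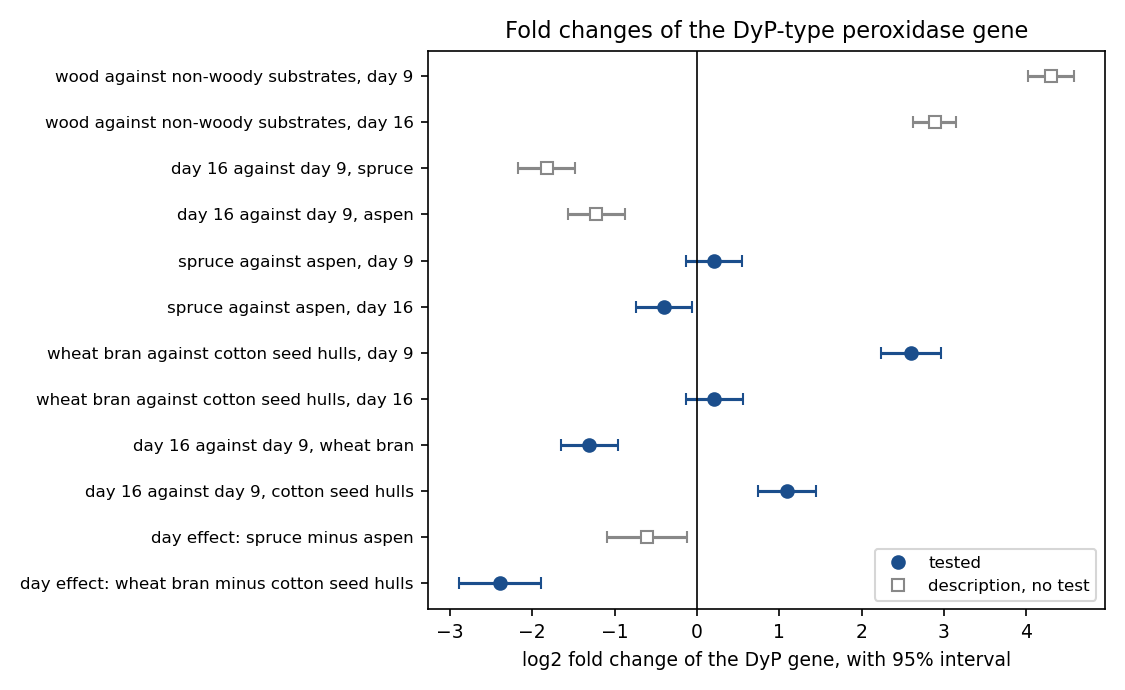
Log2 fold changes of the DyP-type peroxidase gene from edgeR with 95% intervals. Filled circles are tested comparisons and open squares are descriptions without a test, and the tested values that passed are those of wheat bran against cotton seed hulls on day 9 (2.60), of day 16 against day 9 on wheat bran (-1.31) and cotton seed hulls (1.09), and of the difference between these 2 day effects (-2.39).

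How far the replicates of the DyP gene lay apart was set against genes of similar abundance. On day 9 spruce its 2 libraries differed 1.53-fold, while the median over the 90 genes with a group mean of at least 1000 RPKM was 1.18-fold, and 13.3% of these genes differed more. On day 9 aspen they differed 1.35-fold, against a median of 1.21-fold over 99 genes, with 24.2% of them further apart. In the other 6 groups the fold between its libraries was 1.07 to 1.17. On day 16 aspen it was 1.08, below the median of 1.12 over the abundant genes, with 61.8% of them further apart. In the rest it was above their median, with 10.6 to 25.8% of them further apart. On the non-woody substrates the DyP gene itself was below 1000 RPKM. The wide spread of the DyP level on day 9 wood thus stands beside a wide spread of abundant genes in the same libraries. Day 16 aspen aside, the DyP gene was also spread more widely than most of these genes in the other groups. The part of this spread in the results was not tested.

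The DyP transcript was set beside the other annotated heme peroxidases, per length as RPKM. The 12 class II peroxidase genes summed to 76.8 ± 5.33 RPKM on day 16 spruce and 195 ± 51.9 on day 9 spruce, 139.8 ± 10.4 and 661 ± 231 on aspen, 180.1 ± 8.53 and 214 ± 12.5 on wheat bran, and 98.1 ± 7.58 and 260.1 ± 0.0398 on cotton seed hulls. The DyP gene alone was above this sum in every library except the 2 of cotton seed hulls on day 9. It stood at 33.8 and 35.8 times the sum on day 16 spruce, against 71.8 and 32.0 times on day 9 spruce. On aspen the multiple was 24.1 and 23.4 on day 16, against 16.3 and 7.29 on day 9. On wheat bran it was 2.02 in both day 16 libraries, against 4.22 and 4.29 on day 9. On cotton seed hulls it was 2.33 and 2.31 on day 16, against 0.509 and 0.470 on day 9, so there the class II sum was higher than the DyP gene.

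A further 8 genes are described in other ways, among them heme peroxidase and chloroperoxidase. Of the summed RPKM of all these heme peroxidase genes, the DyP gene made up 85.8 ± 0.999% on day 16 spruce and 90.9 ± 3.14% on day 9 spruce, and 87.3 ± 0.475% and 77.5 ± 8.03% on aspen. On wheat bran its part was 37.8 ± 0.135% on day 16 and 53.5 ± 0.955% on day 9, and on cotton seed hulls 33.7 ± 1.78% and 10.9 ± 0.796%. These shares of transcript say nothing of the amount or activity of the enzymes.

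**Figure D4:**
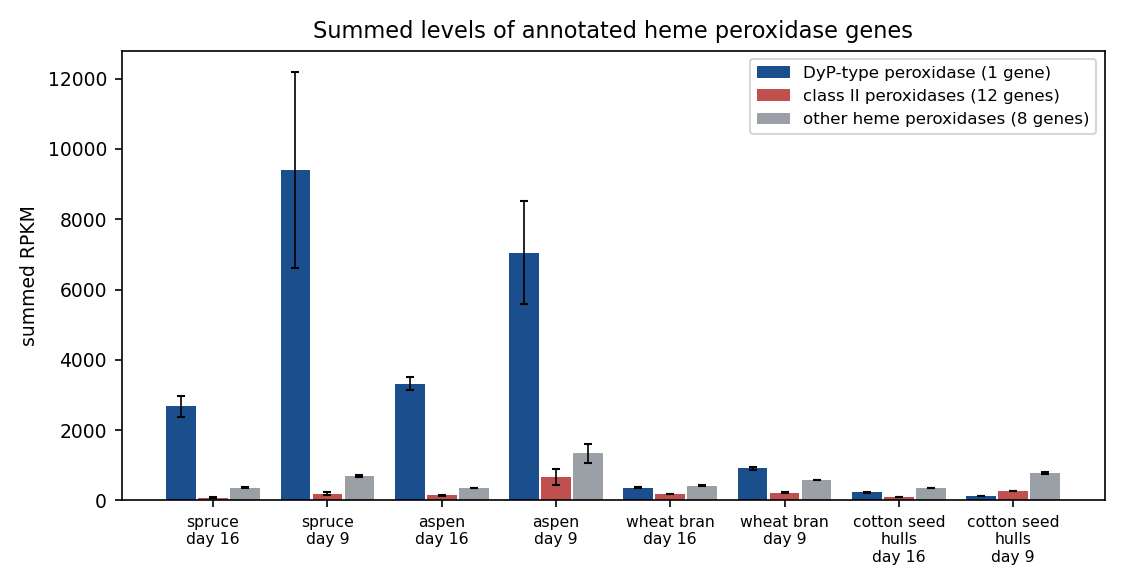
Summed RPKM (bars, group mean, error bars SD of 2 libraries) of the DyP-type peroxidase gene, the 12 class II peroxidase genes and the 8 other heme peroxidase genes in each group. The DyP bar is above the others on wood, from 2675 RPKM on day 16 spruce to 9398 RPKM on day 9 spruce, and below both of them on day 9 cotton seed hulls (127 RPKM against 260.1 and 778 RPKM).

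Members of the class II list changed in their own ways. Manganese peroxidase DICSQDRAFT_59877, which oxidises manganese to ions that attack lignin, had 15.3 ± 2.73 RPKM on day 16 and 114 ± 15.05 on day 9 on spruce, and 13.3 ± 0.181 and 575 ± 207 on aspen. It was between 8.22 and 16.7 RPKM in the group means of the non-woody substrates. Manganese peroxidase DICSQDRAFT_141471 had its highest mean on day 9 wheat bran (123 ± 12.3 RPKM) and 2.95 ± 0.852 RPKM on day 9 aspen. On day 16 it had 68.8 ± 17.8 RPKM on aspen and 66.3 ± 1.085 RPKM on cotton seed hulls, so its levels did not simply run against those of the DyP gene.

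Counts of members past the test were taken for the day effects. Of the 12 class II genes, 2 were higher and 2 lower on day 16 on spruce, where 23.6% of all genes were higher and 27.0% lower. On aspen 5 were higher and 3 lower, beside 31.5% and 32.1% of all genes. On wheat bran none was higher and 1 lower (9.13% and 8.16% of all genes), and on cotton seed hulls again none was higher and 1 lower (15.7% and 12.7%). These shares of all genes stand behind every list count of the day effects below. They depend on the scaling for cotton seed hulls, since 1660 genes were called higher and 1343 lower by TMM, but 760 higher and 3024 lower by library size. By library size none of the class II genes was higher there and 4 were lower. Their median log2 fold change was -0.28 for spruce, 0.57 for aspen, -0.09 for wheat bran and -0.48 for cotton seed hulls. The medians of all genes lay between -0.01 and 0.03 in these comparisons.

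The 8 other heme peroxidase genes had 1 member higher and 5 lower on day 16 on spruce (23.6% and 27.0% of all genes). On aspen 1 was higher and 6 lower (31.5% and 32.1%), and on wheat bran 1 higher and 4 lower (9.13% and 8.16%). None was higher and 5 were lower on cotton seed hulls (15.7% and 12.7%), or none and 7 by library size. Their medians were -0.66, -1.42, -0.48 and -0.53 in that order of substrates. On cotton seed hulls the DyP gene rose, while none of the 12 class II and 8 other heme peroxidase genes was called higher by edgeR after adjustment. Over all genes 15.7% were called higher there, so few of these peroxidase genes would be called at that share. At an unadjusted p under 0.05, none of the class II genes and 1 of the 8 others was higher there, and DESeq2 and limma called none of them higher. The most abundant of the 8 over all groups, DICSQDRAFT_131684, had 42.2 ± 1.55 RPKM on day 16 and 85.8 ± 0.641 RPKM on day 9 on that substrate. Chloroperoxidase DICSQDRAFT_180751 had 134 ± 5.05 RPKM on day 16 and 447 ± 23.8 RPKM on day 9 there.

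Laccases, which oxidise phenols with oxygen and need no peroxide, formed a list of 12 with the related multicopper oxidases. On day 16, 2 were higher and 6 lower on spruce (23.6% and 27.0% of all genes), and 3 higher and 7 lower on aspen (31.5% and 32.1%). On wheat bran 2 were higher and none lower (9.13% and 8.16%). Cotton seed hulls had the same counts (15.7% and 12.7%), which became 1 and 1 by library size. The medians were -1.43, -0.93, -0.05 and 0.31. Laccase B (DICSQDRAFT_110823) had group means of 169 to 1949 RPKM on wood and of 5.82 to 9.87 RPKM on the non-woody substrates. Laccase DICSQDRAFT_176907 had 62.4 to 1226 RPKM on wood and 4.97 to 6.40 RPKM on the others. The DyP gene kept group means of 127 to 909 RPKM on the non-woody substrates, where these laccases were below 10 RPKM.

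Enzymes that supply hydrogen peroxide did not all go the way of the DyP gene. The list of GMC oxidoreductases, a flavoenzyme family to which alcohol oxidases belong, had 34 members, 3 of them described as aryl-alcohol dehydrogenases, which are other enzymes. On day 16, 10 were higher and 13 lower on spruce (23.6% and 27.0% of all genes), and 9 higher and 19 lower on aspen (31.5% and 32.1%). On wheat bran 5 were higher and 5 lower (9.13% and 8.16%). The counts for cotton seed hulls were 6 higher and 7 lower (15.7% and 12.7%), which became 3 and 11 by library size. The medians were -0.11, -0.78, -0.08 and 0.08, the last at -0.17 by library size. Alcohol oxidase DICSQDRAFT_181599, the most abundant of them, had 7826 ± 241 RPKM on day 16 and 1119 ± 58.1 RPKM on day 9 on spruce, and 11161 ± 1476 and 392 ± 216 RPKM on aspen. On the non-woody substrates its group means were 10059.8 to 11818 RPKM. It was thus lowest in the 2 groups where the DyP gene was highest. Alcohol oxidase-like DICSQDRAFT_149587 had 24.5 RPKM on day 9 aspen and 54.3 RPKM on day 9 spruce, also its lowest group means.

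Copper radical oxidases, which make peroxide from small aldehydes or sugars, were a list of 9. On day 16, 4 were higher and 1 lower on spruce (23.6% and 27.0% of all genes), and 6 higher and 1 lower on aspen (31.5% and 32.1%). On wheat bran 1 was higher and none lower (9.13% and 8.16%). Cotton seed hulls had 1 higher and 1 lower (15.7% and 12.7%), or none and 2 by library size. The medians were -0.19, 0.99, 0.42 and 0.08, the last again at -0.17 by library size. Glyoxal oxidase DICSQDRAFT_167685 had group means of 1.84 to 42.4 RPKM on wood and 377 to 1267 RPKM on the non-woody substrates. Galactose oxidase DICSQDRAFT_131172 had 68.1 to 136 RPKM on wood and 45.0 to 51.9 RPKM on the others, which is the same order of substrate classes as for the DyP gene.

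Genes that remove peroxide and superoxide were a list of 9. On day 16, 2 were higher and 4 lower on spruce (23.6% and 27.0% of all genes), and 3 higher and 5 lower on aspen (31.5% and 32.1%). On wheat bran 2 were higher and 2 lower (9.13% and 8.16%). Cotton seed hulls had 1 higher and 1 lower (15.7% and 12.7%), or none and 3 by library size. The medians were -0.18, -0.79, 0.14 and -0.03. Catalase DICSQDRAFT_82531 had group means of 935 to 1616 RPKM on wood and 1931 to 3374 RPKM on the non-woody substrates. Cysteine peroxiredoxin DICSQDRAFT_56656, which reduces peroxides, had 829 to 1297 RPKM on wood and 249 to 1055 RPKM on the others.

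Heme synthesis was looked at because every DyP-type enzyme carries a heme. Of its 10 genes, 2 were higher and 5 lower on day 16 on spruce (23.6% and 27.0% of all genes), and 3 higher and 5 lower on aspen (31.5% and 32.1%). None was higher and 2 were lower on wheat bran (9.13% and 8.16%). The counts were the same on cotton seed hulls (15.7% and 12.7%), where 5 were lower by library size. The medians were -0.25, -0.10, -0.10 and -0.11, with 0.04 on aspen by library size. 5-aminolevulinic acid synthase (DICSQDRAFT_57308), the first enzyme of the pathway, had 143 ± 8.08 RPKM on day 16 and 245 ± 25.1 on day 9 on spruce, and 175 ± 6.09 and 373 ± 64.3 on aspen. It had 62.1 ± 0.117 and 166 ± 2.34 RPKM on wheat bran, and 61.1 ± 4.05 and 89.5 ± 2.09 on cotton seed hulls. Its day 9 means were above its day 16 means on every substrate, cotton seed hulls included, where the DyP gene had the opposite order. Porphobilinogen synthase (DICSQDRAFT_51069), the next enzyme, had its highest group mean on day 9 spruce (68.0 ± 4.81 RPKM).

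For wheat bran against cotton seed hulls on day 9, where the DyP gene was higher, 15.2% of all genes were higher and 18.5% lower. Of the class II genes none was higher and 1 lower, of the other heme peroxidases 1 was higher and 3 lower, and of the laccases 1 was higher and 1 lower. GMC oxidoreductases had 4 higher and 8 lower, copper radical oxidases none higher and 3 lower, the removal genes 1 higher and none lower, and heme synthesis 1 higher and 1 lower. Where edgeR called none in these lists, an unadjusted p under 0.05 gave 1 class II gene and 1 copper radical oxidase higher and 2 removal genes lower. DESeq2 called only 1 removal gene lower among these, and limma 1 class II gene and 2 copper radical oxidases higher. The list medians lay between -0.21 and 0.24, and with library size alone, where the median of all genes was 0.25, between 0.02 and 0.47. A list of 37 genes named as housekeeping, most of them actin-related, had 3 higher and 6 lower here. These counts turn with the scaling: by library size the housekeeping list had 18 higher and 2 lower, GMC oxidoreductases 11 and 6, and heme synthesis 4 and none, beside 3347 and 933 of all genes. In the day effects the housekeeping list had 3 higher and 20 lower on spruce (23.6% and 27.0% of all genes), 6 and 19 on aspen (31.5% and 32.1%), and 1 and 4 on wheat bran (9.13% and 8.16%). For cotton seed hulls the counts were 4 and 8 (15.7% and 12.7%), but none and 22 by library size. Its most abundant members, ubiquitin-conjugating enzyme DICSQDRAFT_138257 and translation elongation factor 1a (DICSQDRAFT_46769), had group means of 3248 to 5496 and of 1291 to 2958 RPKM.

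The genes whose pattern over the 8 groups was most like that of the DyP gene were ranked by Pearson's r of the group means of log2(RPKM + 1). Among 8195 genes with at least 10 RPKM in some group, the 10 closest had r of 0.983 to 0.998. These r are descriptions over 8 points that share their libraries and their scaling, and the wood and non-woody groups form separate clusters. The median r of all these genes was 0.616, and 1050 of them were above 0.9, so a high r is common here.

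Closest was DICSQDRAFT_166639, which has no description, at 11.3 ± 1.92 RPKM on day 9 spruce and 0.921 ± 0.509 RPKM on day 9 cotton seed hulls, its highest and lowest group means. The second was cytochrome P450 DICSQDRAFT_168992, one of the enzymes that oxidise small molecules such as aromatic compounds. It had 326 ± 39.1 RPKM on day 16 and 798 ± 49.2 on day 9 on spruce, and 393 ± 59.5 and 1122 ± 56.2 on aspen. On wheat bran it had 52.0 ± 2.81 and 93.4 ± 8.83 RPKM, and on cotton seed hulls 31.9 ± 3.28 and 22.8 ± 2.29 RPKM. Its mean RPKM ranged 49.2-fold over the groups, next to 73.8-fold for the DyP gene. In all 16 libraries the DyP level was 5.42 to 14.9 times that of this P450 gene.

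The rest of the 10 were lower in level. Translin (DICSQDRAFT_102650), a nucleic acid-binding protein, had group means of 5.59 to 80.7 RPKM, a mitochondrial carrier (DICSQDRAFT_96509) 9.30 to 21.9 RPKM, and an acyl-CoA N-acyltransferase (DICSQDRAFT_154796) 0.445 to 16.5 RPKM. DICSQDRAFT_104522, DICSQDRAFT_180975, DICSQDRAFT_169565, DICSQDRAFT_172382 and DICSQDRAFT_140272 have no description. DICSQDRAFT_169565 stood at 12.4 ± 12.6 RPKM on day 9 spruce, a spread as wide as its mean, and its r over the 16 libraries was 0.808. By Spearman's rho over the groups, 9 genes had the same order of groups as the DyP gene, 3 of these 10 among them. The rank of 10 by rho was a tie at 0.976, which 127 genes reached or passed, 7 of these 10 among them. By r over the 16 libraries 6 of the 10 were again among the 10 closest.

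**Figure D5:**
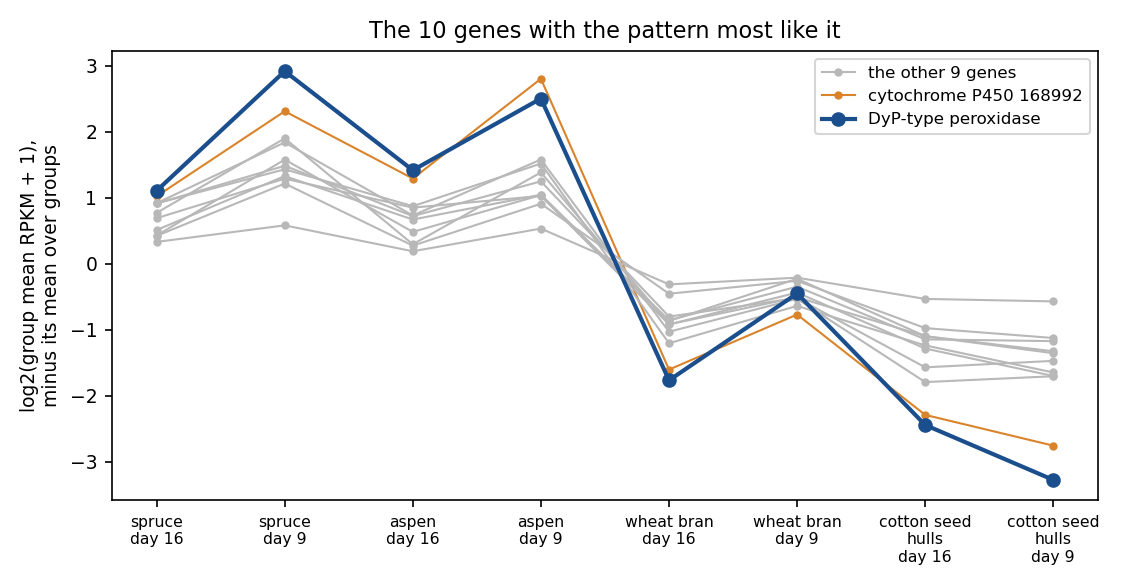
Group means of log2(RPKM + 1), centred on the mean over the 8 groups, for the DyP-type peroxidase gene (thick line) and the 10 genes chosen for having the most similar pattern. The cytochrome P450 DICSQDRAFT_168992 spans a 49.2-fold range of group means, near the 73.8-fold range of the DyP gene, and the lines of the 9 remaining genes are flatter. Adding 1 RPKM flattens the lines of genes with low levels, such as DICSQDRAFT_154796, whose group means span 37.1-fold.

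The genes next to the DyP gene in the reference gene list did not share its abundance. On one side lie DICSQDRAFT_163857, DICSQDRAFT_183785 and DICSQDRAFT_71357, all without a description, and on the other an oligopeptide transporter (DICSQDRAFT_183788), which takes up short peptides, DICSQDRAFT_157886 without a description, and a cytoplasmic protein (DICSQDRAFT_141216). The highest group mean among these 6 was 272 RPKM, for DICSQDRAFT_141216 on day 16 spruce. DICSQDRAFT_163857, the nearest on its side, was highest on day 16 spruce, had 9.22 RPKM on day 16 and 15.3 RPKM on day 9 on aspen, and 1.59 to 4.14 RPKM in the non-woody group means, and its r with the DyP gene over the 8 group means was 0.921. DICSQDRAFT_157886 had r of 0.909, with 47.2 to 159 RPKM. DICSQDRAFT_183785 ran the other way, with 21.9 RPKM on day 9 aspen, 235 RPKM on day 16 cotton seed hulls and r of -0.861.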

How the data were processed

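Per the labels' protocols, RNA was extracted with CTAB and the mRNA sequenced after standard Illumina preparation. The authors deposited, per library and gene model, raw unique read counts, RPKM scaled to model length and library total, and the percent of the model covered by reads. For the aligner, the counter, the build and the use of strand, nothing is stated in these sources. Reads were whole numbers, summed to the stated totals and gave the deposited RPKM. Genes absent from a library were taken as 0. Locus tags were built from protein numbers, and 11371 of 11410 matched the RefSeq list (assembly Dichomitus squalens v1.0), used only for names and gene order.

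Counts were tested with edgeR 4.0.16 in R 4.3.3 over all 16 libraries: filterByExpr (minimum count 10, minimum total 15) left 10584 genes, followed by TMM, 1 mean per group, robust quasi-likelihood with 8 residual degrees of freedom and a common biological coefficient of variation of 0.0982, two-sided tests, and Benjamini-Hochberg adjustment over all genes at 0.05. Wood against non-woody substrates, the day effects on wood and their difference carry no p. They rest on the wood levels behind the choice of the gene. Spruce against aspen was tested on each day, though it uses the same wood libraries. Intervals are the log2 fold change ± the t quantile times its SE. The SE rests on 1 spread per gene shared by all groups, not on the spread of the groups compared. For the DyP gene the SD of log2 RPKM ran from 0.07 on day 16 wheat bran to 0.43 on day 9 spruce. The scripts were tested on simulated data. Alternatives were library size alone, RLE scaling, DESeq2 1.42.0, no filter, limma 3.58.1 on log2(RPKM + 1) and log2(RPKM + 0.1), non-robust dispersion, a replicate block, the libraries compared alone, and each library left out.

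The gene, the lists (patterns in the authors' descriptions) and the tests were chosen with earlier results of these data known. Named genes are the DyP gene, the 10 closest in pattern, the first-ranked gene of each group, its neighbours in rank on day 9 wood, 3 neighbours on each side in the reference list, and the 2 most abundant members of each list.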

Additional observations from a re-analysis of the deposited data

Results flagged for a closer look

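The day effect of the DyP gene differed between the non-woody substrates by the test of that difference. On wheat bran the level was 364 ± 16.9 RPKM on day 16 and 909 ± 43.8 RPKM on day 9, and on cotton seed hulls 228 ± 16.7 RPKM on day 16 and 127 ± 7.28 RPKM on day 9 (SD, n = 2). The day effect on wheat bran minus that on cotton seed hulls was -2.39 ± 0.23 on the log2 scale (adjusted p = 8.21e-06, edgeR quasi-likelihood test). Over all alternatives run it stayed between -2.45 and -2.15, with adjusted p of at most 0.000226. Scaling by library size only moved the median over all genes in this comparison to 0.22.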

How the results depend on the processing

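Each of the 12 fold changes of the DyP gene was recomputed under 25 alternatives, and 285 of the 300 values kept their direction and their side of the threshold or, where no test was made, moved by less than the spread between replicates. Of the alternatives, 16 left out a library, which often lay outside the groups compared, so little change was possible there. The count of 285 is therefore not a count of independent checks. For wood against non-woody substrates, library size alone gave 4.58 on day 9 and 3.37 on day 16, and limma on RPKM gave 3.37 on day 16 with either pseudocount. For wheat bran against cotton seed hulls on day 16, library size alone gave 0.68, limma 0.679 and 0.681 with 1 and 0.1 added (adjusted p = 0.00525 and 0.00548), and the libraries compared alone 0.23. For spruce against aspen on day 16 the last gave -0.37. With single libraries left out, spruce against aspen ran from -0.13 to 0.47 on day 9 and from -0.50 to -0.31 on day 16, the difference of the wood day effects from -0.87 to -0.27, and the day effect on spruce from -2.10 to -1.50. The cause was not tested.

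For most pairs of groups, replicate numbers did not pair the libraries. Over 28 pairs of groups the correlation of deviations ran from -0.06 to 0.36, with 1 pair over 0.1. The replicate block changed no call of the DyP gene and gave, for example, 2.60 for wheat bran against cotton seed hulls on day 9 (adjusted p = 2.27e-08).

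Ranked by reads, which unlike RPKM are not divided by model length, the DyP gene was at 1 on both day 9 woods. It was at 11 on day 16 aspen and at 13 on day 16 spruce. On days 16 and 9 it was at 310 and 96 on wheat bran and at 487 and 942 on cotton seed hulls.

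Some counts of all genes called moved by over 1.5 times. Spruce against aspen had 2266 on day 9, but 376 with the libraries compared alone, 3511 by library size and 1287 at least with a library left out; on day 16 it had 2483, and 1306 at least with a library left out. Wheat bran against cotton seed hulls had 3574 on day 9 and 3320 on day 16, with 2239 and 2108 at least when a library was left out and up to 6624 on day 16 otherwise. The day effects had 1830 on wheat bran (878 to 3191) and 3003 on cotton seed hulls (1798 to 4199), and their differences 2013 for the woods (967 to 2229) and 994 for the others (538 to 2271). Of the list counts, 137 of 1000 moved that far. By library size alone, 86.1% of called genes were higher for wood on day 16 (49.7% by TMM) and 68.7% on day 9 (52.3%), 65.1% (48.9%) and 79.2% (38.6%) for spruce against aspen on days 16 and 9, and on wheat bran over cotton seed hulls 90.3% (41.6%) on day 16 and 78.2% (45.1%) on day 9. For day 16 over day 9 it was 20.1% (55.3%) on cotton seed hulls, and for the differences of day effects 83.4% (45.7%) for wheat bran minus cotton seed hulls and 36.4% (56.8%) for spruce minus aspen. List counts of 0 on other day effects stayed 0 by DESeq2, with 0 to 2 members at an unadjusted p under 0.05 and 1 at most by limma.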
